A study of Camellia sinensis with 8 samples.

Results

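The signals of 9 microRNA (miRNA) probes of a tea plant array were described across 2 cultivars and 4 stages each. They were ptc-miR474a, ptc-miR474b, ptc-miR474c, ath-miR854a, osa-miR2096-3p, hvu-miR5049c, mtr-miR5205a, mtr-miR5205b and gma-miR5783, which are 9 of the 3511 probes on the chip and come from 6 miRNA families. They were picked by name because earlier processing of these same arrays had given them lower signals in the cold in Yingshuang and higher signals in the cold in Baiye 1. The cold against control values of the 9 probes are therefore given as a description, with no test, and their opposite direction is the reason for their choice and not a result.

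The study set a cold-tolerant tea cultivar, Yingshuang (YS), beside a cold-sensitive one, Baiye 1 (BY), by hybridizing leaf RNA to a single-colour miRNA chip. In YS the arrays were a control at 28 °C and leaves of plants kept for 4, 12 and 24 h at 4 °C, and in BY the same 4 stages. Each of the 8 conditions was measured on 1 array, so the spread given is that of the 4 repeat spots of a probe on 1 array, which is technical, and no condition has a replicate check. The hour at which each control was taken is not given in the labels, the cold arrays of a cultivar share its 1 control array, and the chip holds no marker of leaf tissue by which the label could be checked.

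Plant miRNAs are short RNAs, cut from hairpin precursors, that guide an Argonaute protein to matching messenger RNAs, which are then cleaved or translated less. Families shared by most land plants coexist with families known from 1 species or a few, and the letters before a probe's name give the species it was designed from. Those species are black cottonwood poplar (ptc), Arabidopsis (ath), rice (osa), barley (hvu), barrel medic (mtr) and soybean (gma). In poplar miR474 is predicted to target mRNAs of pentatricopeptide repeat proteins, which act on organelle RNA, and in Arabidopsis miR854 acts on the mRNA of the RNA-binding protein UBP1b and derives from a retrotransposon.

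The target sequences of the 9 probes are shown because they bear on what the probes could hybridize to in tea. They are written 5′ to 3′ with bases 2 to 8, the seed region, in capitals.
ptc-miR474a: cAAAAGUUgcuggguuuggcuggg
ptc-miR474b: cAAAAGUUguuggguuuggcuggg
ptc-miR474c: cAAAAGCUguuggguuuggcuggg
ath-miR854a: gAUGAGGAuagggaggaggag
osa-miR2096-3p: cCUGAGGGgaaaucggcggga
hvu-miR5049c: aGACAAUUauuuugggacggagg
mtr-miR5205a: cAUACAAUuugggacggagggag
mtr-miR5205b: cUUAUAAUuagggacggagggagu
gma-miR5783: gACGACGAcggggaggacgcgc

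The 3 miR474 probes were near copies of each other. Counting from 1 at the 5′ end, ptc-miR474a and ptc-miR474b differed by C10U, and ptc-miR474b and ptc-miR474c by U7C. Among the 36 pairs of the 9 probes, 1 pair, ptc-miR474a with ptc-miR474b, had the same seed. Against the 283 tea plant probes, compared without gaps at a shift of up to 3 bases and an overlap of at least 17, the fewest mismatches of the 9 probes lay between 7 (ath-miR854a and hvu-miR5049c) and 9 (ptc-miR474c). Of the 257 miRBase probes detected on at least 1 array, 122 likewise had over 3 mismatches to every tea plant probe.

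Detection here required a normalized signal above 500, a signal above 3 SD of the empty spots and a coefficient of variation (CV) over the repeat spots under 0.5. By this, 295 probes were detected on at least 1 array, among them all 9 probes. ath-miR854a was detected on all 8 arrays, gma-miR5783 on 7, ptc-miR474b and ptc-miR474c on 6, ptc-miR474a and mtr-miR5205b on 5, osa-miR2096-3p on 3, hvu-miR5049c on 2 and mtr-miR5205a on 1. Each of the 9 probes was above 3 SD of the empty spots on all 8 arrays. Signals are on the chip's linear intensity scale after background subtraction and loess normalization. For 7 of the 9 probes the mean signal lay below 815.1, the lowest among the 130 probes on which the loess curve was fitted, so they received the correction at the edge of the curve. The exceptions were ath-miR854a and gma-miR5783. In leaf RNA, fewer cells of a type and less RNA per cell cannot be told apart.

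The miR474 probes were 2.57- to 3.32-fold lower in the cold YS arrays than in the YS control, and 2.96- to 3.08-fold higher in the BY array at 12 h than in the BY control. In YS, ptc-miR474a had normalized signals of 1609.8 ± 301.7 in the control and 591.4 ± 88.7 (4 h), 511.4 ± 88.3 (12 h) and 484.8 ± 100.5 (24 h) in the cold (SD over 4 spots). In BY its signals were 453.9 ± 56.0 in the control and 424.9 ± 262.8 (4 h), 1361.0 ± 266.9 (12 h) and 950.6 ± 106.1 (24 h) in the cold. The YS control and the BY arrays at 12 and 24 h were the 3 highest, and the other 5 arrays lay close together. For ptc-miR474b the YS signals were 1661.1 ± 205.3 in the control and 647.4 ± 98.3 (4 h), 556.9 ± 109.8 (12 h) and 531.8 ± 116.8 (24 h) in the cold, and the BY signals were 440.6 ± 79.9, 453.1 ± 277.6, 1357.7 ± 273.8 and 1056.5 ± 90.7 at the same stages. ptc-miR474c followed the same course, with 1644.0 ± 307.5, 626.2 ± 99.3, 531.9 ± 86.1 and 519.1 ± 120.9 in YS and 443.2 ± 64.8, 441.5 ± 269.7, 1311.3 ± 259.9 and 1000.1 ± 147.8 in BY.

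For these 3 probes the log2 ratio of cold over control in YS was -1.44 to -1.36 after 4 h, -1.65 to -1.58 after 12 h and -1.73 to -1.64 after 24 h. In BY it was -0.10 to 0.04 after 4 h, 1.57 to 1.62 after 12 h and 1.07 to 1.26 after 24 h. Every cold spot was below every control spot at all 3 time points in YS, and above it at 12 and 24 h in BY. At 4 h in BY the spots overlapped. Neighbouring levels among the cold YS arrays, the BY control and the BY array at 4 h differed by less than the larger of their spot SDs.

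ath-miR854a was lowest at 12 h in YS and highest at 24 h in BY. Its signals in YS were 2999.0 ± 578.9 in the control and 1018.7 ± 317.5 (4 h), 910.7 ± 105.5 (12 h) and 1415.6 ± 290.4 (24 h) in the cold. In BY they were 1662.3 ± 201.3 in the control and 1966.1 ± 506.5 (4 h), 2405.2 ± 511.1 (12 h) and 3778.8 ± 373.0 (24 h) in the cold. The BY array at 24 h was the highest of the 8 and the YS array at 12 h the lowest, and the BY control, 4 h and 12 h arrays, neighbours in the order, differed from one to the next by less than the larger spot SD. Every BY spot at 12 and 24 h was nevertheless above every BY control spot. The log2 ratios were -1.56 ± 0.26, -1.72 ± 0.16 and -1.08 ± 0.20 in YS at 4, 12 and 24 h and 0.24 ± 0.21, 0.53 ± 0.18 and 1.18 ± 0.11 in BY (SE over spots).

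osa-miR2096-3p, from the 3′ arm of its rice hairpin, had a course like that of miR474. In YS its signals were 749.4 ± 215.5 in the control and 224.9 ± 67.2 (4 h), 199.1 ± 40.8 (12 h) and 191.1 ± 91.3 (24 h) in the cold. In BY they were 224.4 ± 37.8 in the control and 238.9 ± 231.6 (4 h), 929.2 ± 180.1 (12 h) and 764.2 ± 49.8 (24 h) in the cold. The BY arrays at 12 and 24 h and the YS control formed the upper levels and did not differ from their neighbours beyond the spread, and the other 5 arrays likewise lay together at the lower level. Its log2 ratios reached -1.97 ± 0.40 at 24 h in YS and 2.05 ± 0.19 at 12 h in BY.

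hvu-miR5049c went down with time in YS and stood apart in BY at 24 h alone. Its YS signals were 551.2 ± 164.3 in the control and 332.9 ± 124.7 (4 h), 190.5 ± 42.1 (12 h) and 118.0 ± 53.4 (24 h) in the cold. The BY signals were 271.4 ± 82.8 in the control and 199.5 ± 155.8 (4 h), 337.9 ± 90.2 (12 h) and 964.8 ± 108.0 (24 h) in the cold. In YS the cold spots at 4 h overlapped those of the control, and at 12 and 24 h all of them were below. In BY the cold spots at 4 and 12 h overlapped those of the control, and at 24 h all of them were above. The log2 ratio at 24 h was -2.22 ± 0.39 in YS and 1.83 ± 0.23 in BY.

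The miR5205 probes had the widest range in BY. For mtr-miR5205a the YS signals were 402.0 ± 137.7 in the control and 198.0 ± 66.5 (4 h), 152.4 ± 27.2 (12 h) and 81.2 ± 27.4 (24 h) in the cold, and the BY signals were 73.2 ± 41.0, 100.7 ± 67.0, 429.9 ± 161.5 and 877.4 ± 157.8 at the same stages. Its cold spots overlapped those of the control at 4 h in YS and BY, and lay apart from them at 12 and 24 h. Its log2 ratio at 24 h was -2.31 ± 0.35 in YS and 3.58 ± 0.42 in BY. The BY ratio corresponds to a 12.0-fold higher signal at 24 h than in the control, but this control was dim and its spot CV was 0.56. For mtr-miR5205b the YS signals were 1289.6 ± 369.5, 576.9 ± 191.5, 710.7 ± 74.3 and 466.9 ± 178.4, and the BY signals were 381.6 ± 242.4, 494.6 ± 337.8, 1184.0 ± 379.3 and 1994.0 ± 409.4. At 24 h all cold spots of mtr-miR5205b were below those of the control in YS and above them in BY, with log2 ratios of -1.47 ± 0.34 and 2.39 ± 0.48. Its cold spots overlapped those of the control at 4 and 12 h in YS and at 4 h in BY.

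gma-miR5783 had the smallest difference of the 9 in YS at 24 h. Its YS signals were 1079.3 ± 478.6 in the control and 505.8 ± 158.3 (4 h), 580.4 ± 152.8 (12 h) and 769.4 ± 250.2 (24 h) in the cold, and cold and control spots overlapped at all 3 time points. The BY signals were 641.0 ± 329.0 in the control and 1225.9 ± 537.1 (4 h), 1779.6 ± 373.1 (12 h) and 2183.4 ± 304.6 (24 h) in the cold. All cold BY spots at 12 and 24 h were above those of the control. The log2 ratios in YS were -1.09 ± 0.39 (4 h), -0.89 ± 0.37 (12 h) and -0.49 ± 0.40 (24 h). The 4 h value, the 1 that was past 2-fold, was -0.84 when the YS array at 12 h was left out of the normalization and -0.93 without the BY array at 4 h. It was also inside 2-fold with quantile normalization (-0.78) and with loess on all probes (-0.80). It stayed past 2-fold in the authors' normalized table (-1.03) and with the median of the repeat spots (-1.28), so the call depends on the processing.

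**Figure D1:**
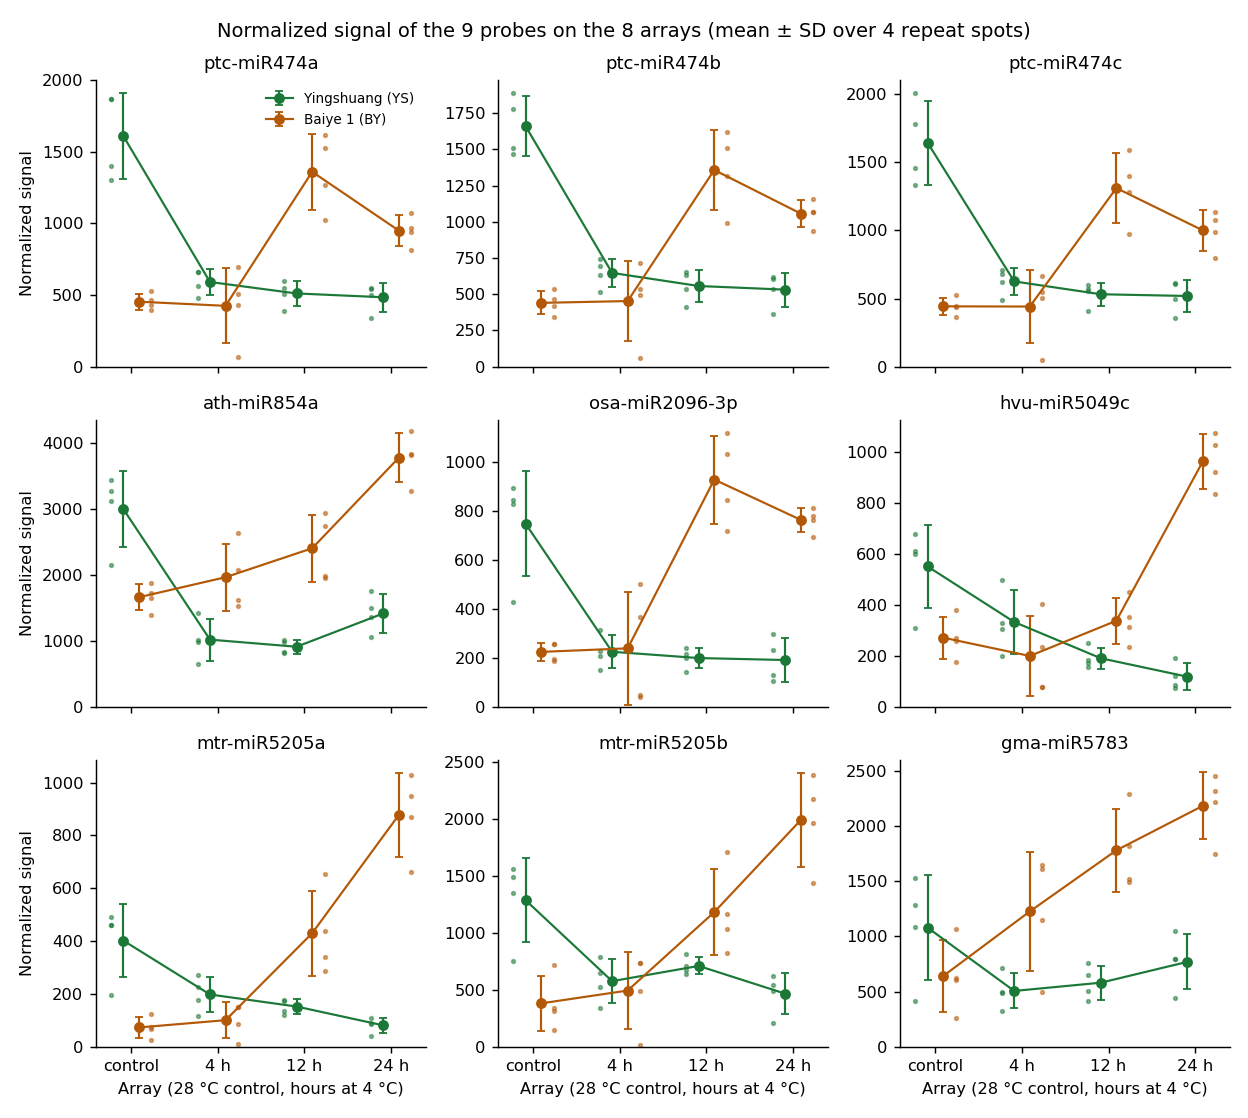
Normalized signal (linear y axis) of each of the 9 probes on the 4 YS and 4 BY arrays, by stage. Large points and bars are the mean and SD over the 4 repeat spots of 1 array, and small points are the spots. In YS the control is the highest of the 4 arrays for all 9 probes, and in BY the highest is 12 h for 4 probes and 24 h for 5.

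The rule for a changed probe asked for a log2 ratio beyond 1, which is 2-fold, and for detection on the cold array, the control array or both. In YS 7, 6 and 7 of the 9 probes were lower by this rule at 4, 12 and 24 h, where 9.28% of 237, 12.4% of 250 and 11.4% of 246 probes tested were lower. In BY 0, 6 and 9 were higher at 4, 12 and 24 h, where 0.444% of 225, 9.66% of 238 and 14.3% of 251 probes tested were higher. In all, 8 of the 9 were both lower in YS and higher in BY at some time point, against 11 (3.73%) of the 295 probes detected on at least 1 array. Because the 9 probes were chosen by these contrasts, nothing is read from the gap between these shares.

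Just outside the rule was mtr-miR5205a, whose YS ratios were between -2.31 and -1.02 but whose signals were under 500 on all 4 YS arrays. Just inside it were the log2 ratios of ptc-miR474a at 24 h in BY (1.07 ± 0.12), ath-miR854a at 24 h in YS (-1.08 ± 0.20) and gma-miR5783 at 4 h in YS (-1.09 ± 0.39). Taking the 9 probes together, the median log2 ratios at 4, 12 and 24 h in YS were -1.36, -1.58 and -1.66, beside -0.12, -0.02 and -0.06 over the 295 detected probes. In BY the medians of the 9 were 0.09, 1.58 and 1.77, beside -0.09, -0.17 and -0.04 over the 295.

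By spots, all cold spots lay below all control spots in YS for 5, 7 and 8 of the 9 probes at 4, 12 and 24 h, which also held for 16.5%, 23.2% and 16.3% of the probes tested. In BY all cold spots lay above all control spots for 0, 8 and 9 of them, beside 3.56%, 19.7% and 28.7% of the probes tested.

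**Figure D2:**
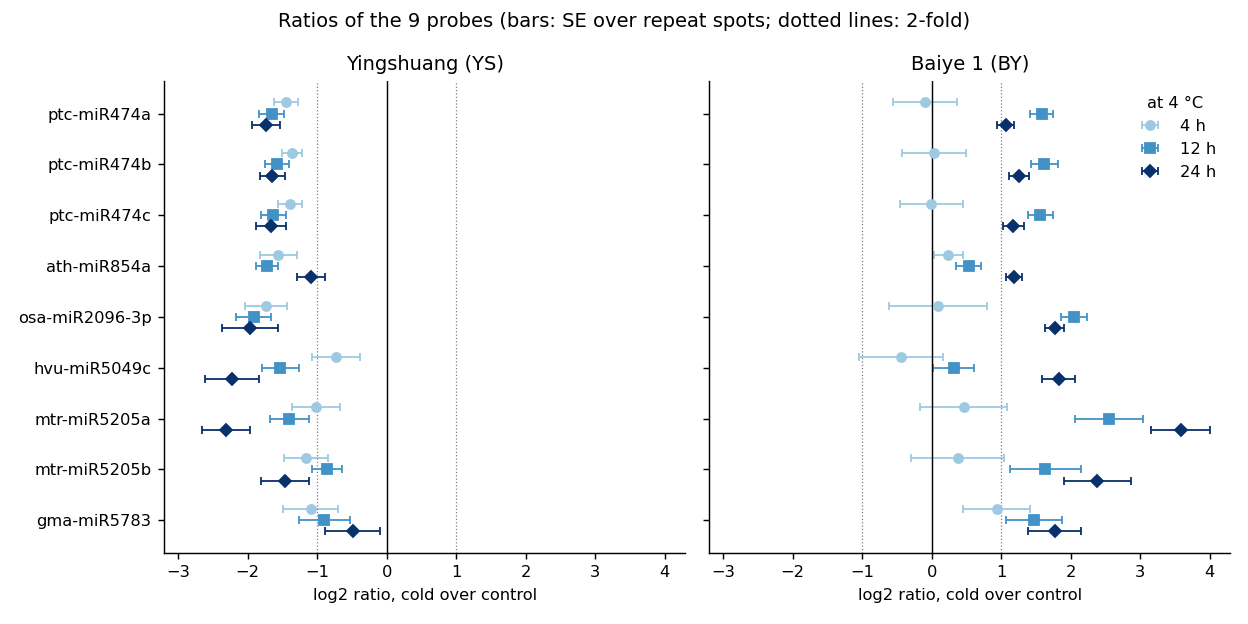
Log2 ratio of cold over control (x axis) of each of the 9 probes in YS (left) and BY (right) at 4, 12 and 24 h. Bars are the SE over the repeat spots and dotted lines mark 2-fold. The YS ratios lie between -2.31 and -0.49, and in BY the 4 h ratios lie on both sides of 0 while the 12 and 24 h ratios lie between 0.32 and 3.58.

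All 9 probes were higher in the YS control than in the BY control, by log2 differences between 0.75 (gma-miR5783) and 2.46 (mtr-miR5205a), where 48.1% of the 295 detected probes were higher in the YS control. These 2 arrays are the denominators of the ratios by which the probes were picked, so the choice itself favours a high YS control and a low BY control, and nothing is read from this count. Over the 4 arrays of each cultivar the mean log2 signals were much closer for the miR474 and miR5205 probes. For ath-miR854a, whose controls differed by 0.85, the means differed by nearly as much with the opposite sign. For gma-miR5783 they differed by more than its controls, also with the opposite sign. For the miR474 probes YS minus BY was -0.02, 0.04 and 0.04, for the miR5205 probes -0.37 and -0.21, and for hvu-miR5049c, osa-miR2096-3p, ath-miR854a and gma-miR5783 it was -0.52, -0.64, -0.73 and -0.91. Each ratio in YS rests on the 1 YS control array and each ratio in BY on the 1 BY control array, so how far these 2 arrays set both directions cannot be told apart from the treatment.

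Across the 8 arrays, the log2 signals of probes of 1 family moved together, with Pearson correlations between 0.98 and 1.00 over the 4 pairs within miR474 and miR5205. Between families they lay between 0.57 and 0.93 over 32 pairs, with a median of 0.80. The 9 probes were picked for a shared course on these same arrays, and no correlations among other detected probes stand beside these values. Nothing is therefore read from the correlations between families. The highest BY array and the lowest YS array differed between probes. The miR474 probes and osa-miR2096-3p were highest at 12 h in BY, and ath-miR854a, hvu-miR5049c, both miR5205 probes and gma-miR5783 were highest at 24 h. In YS 7 of the 9 were lowest at 24 h, ath-miR854a was lowest at 12 h and gma-miR5783 at 4 h. Several of these levels did not differ from the next beyond the larger spot SD. This held in YS for the miR474 probes and osa-miR2096-3p between 12 and 24 h. It also held there for ath-miR854a and gma-miR5783 between 4 and 12 h, and in BY for osa-miR2096-3p between 12 and 24 h.

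The BY array at 4 h was uneven. Each probe has its 4 spots in 3 blocks of the chip, and on this array the block 1 spots were the dimmest for all 9 probes. The log2 ratio of the block 1 signal over that of blocks 2 and 3 had a median of -3.30 over the 9 probes, with a range between -4.99 and -0.58. Over the 203 probes with a signal above 500 on that array the median was -0.46. Of the 9, only ath-miR854a and gma-miR5783 were above 500 there, so this median says little about probes as dim as the other 7. On the other 7 arrays the median for the 9 probes lay between -0.96 and 0.44. The spot CV was 0.5 or more for 7 of the 9 probes at 4 h in BY, so no direction is given for that time point. No share over all detected probes stands beside these counts, and whether the unevenness is particular to the 9 was not tested.

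Computed from 1 block at a time, the directions at the later time points were alike. The median log2 ratio of the 9 probes at 4 h in BY was -1.69 from block 1, 0.34 from block 2 and 0.14 from block 3. At 12 h in BY it was 1.82, 1.41 and 1.35, and at 24 h 1.78, 1.49 and 1.63. All 9 probes were above 0 in all 3 blocks at both of these times. In YS the medians were -1.46, -1.34 and -0.77 at 4 h, -1.59, -1.72 and -1.26 at 12 h, and -1.90, -1.86 and -0.96 at 24 h. In YS 8 of the 9 probes were below 0 in all 3 blocks at each time point. The exceptions were hvu-miR5049c at 4 h, with 0.37 from block 3, and gma-miR5783 at 12 and 24 h, with 0.07 and 0.67 from block 3. The blocks split the same spots from which the 9 probes were picked. No share over all detected probes stands beside these counts, so nothing is read from them.

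**Figure D3:**
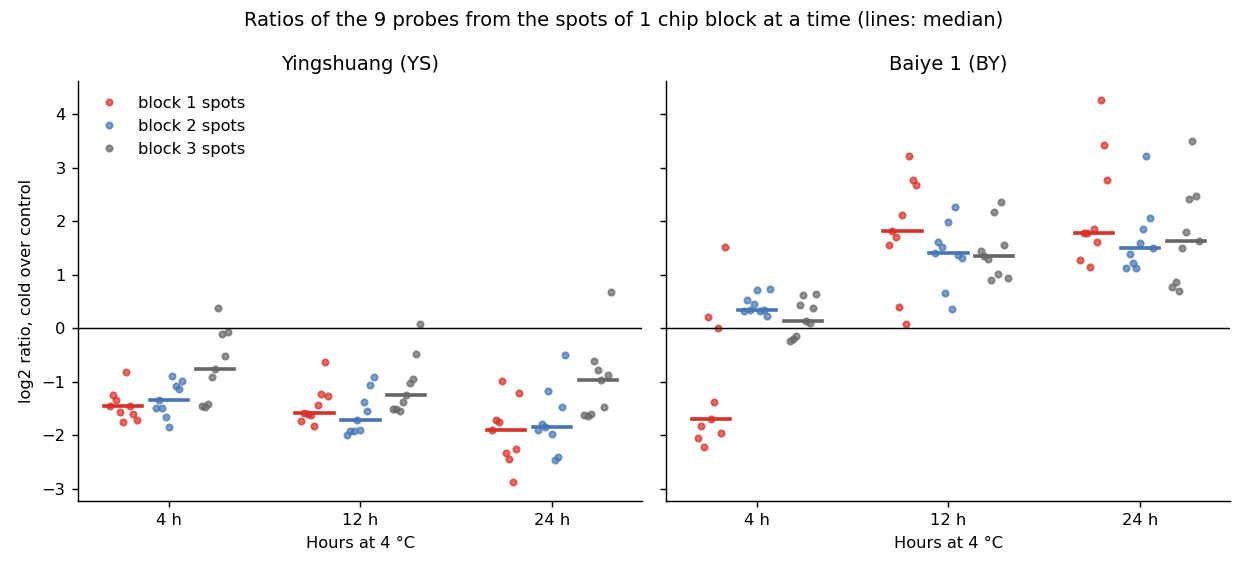
Log2 ratio of cold over control (y axis) of the 9 probes in YS (left) and BY (right), computed from the spots of block 1, 2 or 3 alone. Points are probes and lines are medians. At 4 h in BY the block 1 median is -1.69 against 0.34 and 0.14 from blocks 2 and 3, and at 12 and 24 h all 9 probes are above 0 in every block.

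The chip also holds 8 other probes of the 6 families, none of which was detected on any array. Of these, 2 singled out with their values known differ by 1 base from a member. The melon probe cme-miR854 differs from ath-miR854a by G12U, and mtr-miR5205c differs from mtr-miR5205b by G21U. They are shown here with the seed in capitals.
cme-miR854: gAUGAGGAuagugaggaggag
mtr-miR5205c: cUUAUAAUuagggacggagguagu

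Both had signals under 500 and spots with a CV under 0.5 on all 8 arrays. For cme-miR854 the YS signals were 153.3, 37.8, 49.8 and 98.9, and the BY signals 85.6, 125.8, 172.9 and 166.3, from control to 24 h. For mtr-miR5205c the YS signals were 416.2, 279.6, 231.9 and 129.0, and the BY signals 116.9, 165.8, 273.3 and 429.7. At 4, 12 and 24 h cme-miR854 had YS log2 ratios of -2.02, -1.62 and -0.63 and BY log2 ratios of 0.56, 1.01 and 0.96. For mtr-miR5205c the YS ratios were -0.57, -0.84 and -1.69 and the BY ratios 0.50, 1.23 and 1.88, so that each had the signs of its neighbour in sequence at the 3 YS ratios and at 12 and 24 h in BY. Of the other 6 probes, hvu-miR5049b ranged between 17.7 and 221.8 and hvu-miR5049a reached 46.6. The remaining 4, among them the opposite arm osa-miR2096-5p, stayed at or under 19.1, which is below the floor of 32 set before ratios were taken.

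hvu-miR5049c and the miR5205 probes share a stretch across their families. The 10 letters GGGACGGAGG are in all 3 of them, and the 9 letters GGACGGAGG are in 6 (0.171%) of the 3511 probes and in 4 (1.36%) of the 295 detected ones. The reverse complement, CCUCCGUCC, is in 4 (0.114%) of the 3511 probes and in none of the detected ones. The 10 letters are the longest run common to these 3 members, and the 9 are the part of it that the sorghum probe sbi-miR6224a-3p also holds. The 6 probes are shown with the 9 letters in capitals.
hvu-miR5049c: agacaauuauuuugGGACGGAGG
mtr-miR5205a: cauacaauuugGGACGGAGGgag
mtr-miR5205b: cuuauaauuagGGACGGAGGgagu
mtr-miR5205c: cuuauaauuagGGACGGAGGuagu
hvu-miR1436: acauuaugGGACGGAGGgagu
sbi-miR6224a-3p: cuuauauacuaGGACGGAGGg

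The barley probe hvu-miR1436 had signals of 764.7 ± 246.9, 215.1 ± 67.5, 351.0 ± 43.0 and 252.0 ± 130.5 in YS from control to 24 h. In BY they were 359.2 ± 79.4, 227.2 ± 256.7, 843.5 ± 200.1 and 1173.3 ± 136.1. All cold spots were below those of the control at the 3 time points in YS and above them at 12 and 24 h in BY. The sorghum probe sbi-miR6224a-3p was never detected, with 174.5, 65.3, 49.3 and 49.8 in YS and 42.4, 50.9, 202.4 and 386.4 in BY. All 6 probes with these letters were thus lower at 24 h than in the control in YS and higher in BY. Of these, 3 are members chosen for this, mtr-miR5205c is 1 base from a member, and sbi-miR6224a-3p helped to set the letters. Because the letters were taken from these same probes, nothing is read from this count.

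Besides 8 of the 9 probes, 3 others moved past 2-fold in the same directions: hvu-miR1436, osa-miR5819 and zma-miR166k-5p. osa-miR5819 had signals of 1259.5 ± 472.7, 630.5 ± 240.6, 336.7 ± 65.7 and 425.8 ± 152.1 in YS and 1007.7 ± 358.6, 1205.4 ± 649.2, 3146.1 ± 371.2 and 3396.2 ± 264.3 in BY. zma-miR166k-5p, the opposite arm of a miR166 that targets HD-ZIP III transcription factor mRNAs, had 567.1 ± 198.9, 245.7 ± 86.3, 116.2 ± 40.3 and 180.5 ± 89.3 in YS and 833.3 ± 343.3, 1248.6 ± 939.4, 803.8 ± 176.5 and 3059.7 ± 287.1 in BY. Its BY signal stood above the control at 24 h alone. It was also the 1 probe of the 11 with 2 mismatches to a tea plant probe, where the other 10 had 7 or more.

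The 9 probes share a sequence feature that was not used to pick them. All 9 targets hold a run of at least 3 G, which 34.2% of the 295 detected probes and 20.7% of all 3511 probes do. This cut-off equals the shortest of the longest G runs among the 9, so nothing is read from all 9 passing it. The G share of the 9 was between 34.8% and 57.1% with a median of 41.7%, beside medians of 30.0% over the detected and 25.0% over all probes. Other features differed too, with a median purine share of 66.7% and a median length of 23 bases, beside 52.4% and 21 over the detected probes. ath-miR854a had the highest share and hvu-miR5049c the lowest. All 11 probes with this pair of directions had such a G run, and 8 of them are members picked for these directions. Without the 9 probes, 3 of the 92 detected probes with a G run (3.26%) and 0 of the 194 without one had this pair of directions. The members and their near copies are not independent of each other, since the 3 miR474 probes differ by 1 or 2 bases. hvu-miR5049c and the miR5205 probes also share the stretch given above, which holds a G run.

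Over these 92 probes the median log2 ratios at 4, 12 and 24 h were -0.21, -0.04 and -0.16 for YS and -0.09, -0.06 and -0.04 for BY. The 194 without one had YS medians of -0.01, 0.01 and -0.0015 and BY medians of -0.08, -0.28 and -0.12. Across the 295 probes the G share and the difference between cultivars (mean log2 ratio in YS minus that in BY) had a Pearson correlation of -0.34 and a Spearman correlation of -0.33. Without the 9 probes these were -0.29 and -0.29 over 286 probes. These are correlations across probes of the same 8 arrays, many of them near copies, and the probes are not independent replicates. The difference between cultivars takes in the uneven BY array at 4 h, and the 9 probes were picked for a large difference.

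**Figure D4:**
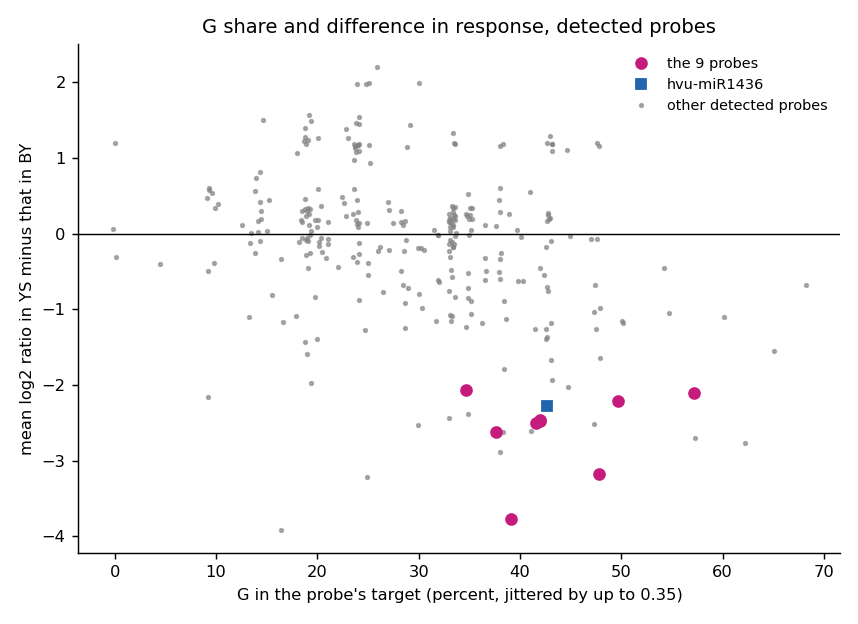
G share of the target (x axis, percent) and mean log2 ratio in YS minus that in BY (y axis) for the 295 detected probes. The BY mean takes in the uneven array at 4 h. The 9 probes lie between 34.8% and 57.1% G and between -3.78 and -2.06, and the square is hvu-miR1436. The other detected probes scatter on both sides of 0. Some lie as low as the 9 or lower, with less G (PC-3p-1949389_1, 16.7% and -3.91) or with as much (osa-miR5819, 57.1% and -2.71).

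Probes with few mismatches to tea plant sequences were set beside the 9 as well. Without the 9, there were 113 detected miRBase probes with over 3 mismatches, and their median YS log2 ratios were -0.22, -0.04 and -0.10, with BY medians of -0.17, -0.33 and -0.12. The 74 probes with 0 or 1 mismatch had YS medians of -0.08, -0.03 and -0.05 and BY medians of -0.03, -0.19 and 0.09. The probes lower in YS and higher in BY past 2-fold were 0 of these 74, 1 of the 61 with 2 or 3 mismatches and 2 of the 113 with over 3.

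Spiked control probes moved on 2 of the YS arrays. These controls come as series whose names end in P, M05 and M10, and what the endings stand for is not given in the sources used here. The median log2 ratio of the M05 and M10 probes over their P probes, 16 ratios on each array, was -1.91 for the YS control and -1.94, -3.97 and -3.05 for the YS cold arrays in order of time. The BY control had -1.49 and the BY cold arrays -1.34, -1.19 and -1.27. The YS arrays at 12 and 24 h thus stood apart, and the part of this in the YS ratios at 12 and 24 h was not tested. At 4 h the ratio was at the level of the YS control, and its relation to the 9 probes was not tested at any time point. Before normalization the mean log2 signal of the 130 fitted probes was lowest on the BY array at 24 h, with 10.9, and highest on the YS array at 4 h, with 12.4. With no normalization at all, the 9 probes had YS medians of -0.47, -2.24 and -1.65 and BY medians of 0.09, 2.70 and 1.15, and 1 of the 9, hvu-miR5049c, was then above its control at 4 h in YS, by 0.16.

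**Figure D5:**
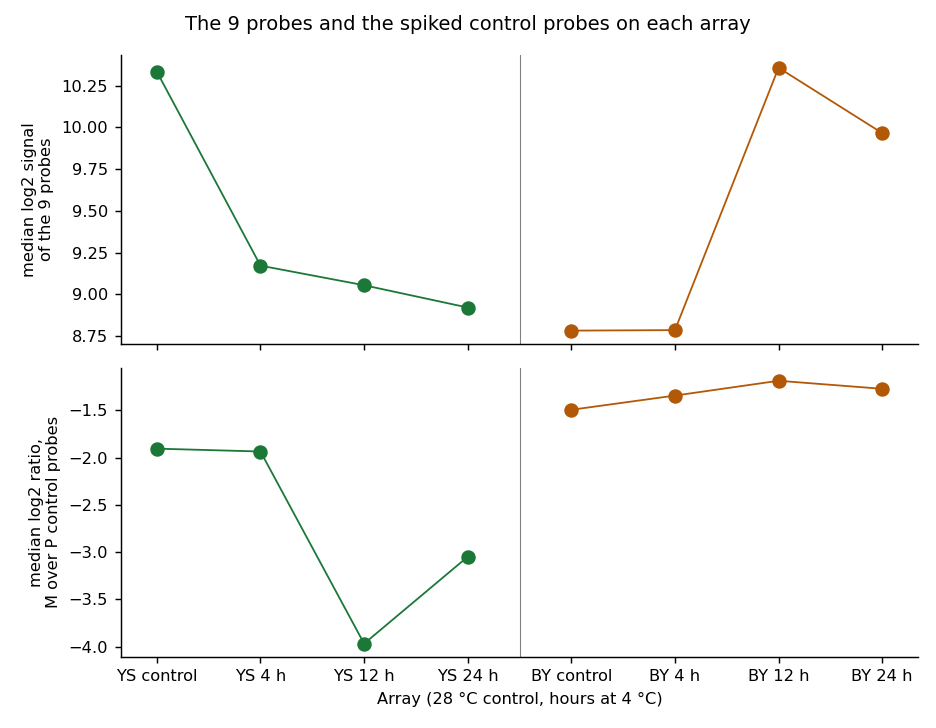
Median log2 normalized signal of the 9 probes (upper panel) and median log2 ratio of M05 and M10 over P spiked control probes (lower panel) on each array, YS left and BY right. The control ratio is -1.91 and -1.94 in the YS control and at 4 h, -3.97 and -3.05 at 12 and 24 h, and between -1.49 and -1.19 in BY.

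For each probe, the 3 probes of other families whose log2 signals were most correlated with it over the 8 arrays are given as a description. hvu-miR1436 was the closest to ptc-miR474a (Pearson r = 0.83), ptc-miR474b (0.83), ptc-miR474c (0.82) and osa-miR2096-3p (0.92), and the third closest to mtr-miR5205b (0.90). gma-miR4993 was the closest to mtr-miR5205a (0.93) and mtr-miR5205b (0.95) and the second to ptc-miR474b (0.82) and ptc-miR474c (0.80). nta-MIR2911-p3_1ss15TC was the third for all 3 miR474 probes (0.79, 0.81 and 0.79), and gma-miR1511 was the second for ptc-miR474a (0.79).

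hvu-miR5049c was closest to gma-miR396a-3p (0.99), ptc-miR396e-3p (0.92) and mdm-miR3627a (0.90), and gma-miR396a-3p was also the second for mtr-miR5205a (0.91). The tea plant probe PC-3p-1949389_1 was the third for mtr-miR5205a (0.91) and the second for mtr-miR5205b (0.93). For ath-miR854a they were hvu-miR6186 (0.90), osa-miR5819 (0.87) and zma-miR166k-5p (0.85). osa-miR5819 was also the closest to gma-miR5783 (0.89) and the third for osa-miR2096-3p (0.85). PC-3p-518188_2 was the second for osa-miR2096-3p and gma-miR5783 (both 0.88), and zma-miR166n-5p the third for gma-miR5783 (0.85).

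Other groups of probes had other courses. The miR170 and miR171 probes, known regulators of GRAS-family scarecrow-like transcription factors, had 24 of 74 probes detected. At 4, 12 and 24 h their median log2 ratios in YS were 0.04, 0.25 and 0.20, against -0.66, -0.76 and -1.45 for BY. The miR529, miR1863 and miR2936 probes, with 12 of 18 detected, had -0.48, -1.50 and -1.09 in YS and -0.06, -1.02 and -1.22 in BY, below 0 in both. None of the 24 and none of the 12 was lower in YS and higher in BY past 2-fold, beside 3.73% of the 295 detected probes. None held a run of 3 G, beside 34.2% of the 295. The median G shares of these groups were 23.8% and 32.6%, beside 41.7% for the 9 probes. The groups were chosen with their courses known, so nothing is read from these counts, and any part of the G share was not tested. The contrasts of a cultivar share its control array in all 3 groups.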

How the data were processed

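Signals were measured on 8 single-colour (Cy3) miRNA arrays of tea leaf, 1 for each condition. The deposited scanner tables hold linear spot intensity, not background-subtracted or normalized, of 15066 spots on each array, 4 for each of 3228 miRBase and 283 tea plant probes. The authors' own table holds normalized intensity, for which their methods name background subtraction and LOWESS, and it was used as an alternative only. The software versions behind these files are not given in the sources used here.

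The median of 146 empty spots was subtracted from each array, repeat spots were averaged, and a loess curve (degree 1, span 0.7, R 4.3.3) of each array against the mean log2 signal over arrays was fitted to the 130 probes that passed detection on every array when unnormalized. It was held flat outside their range. A floor of 32 was set before log2. Detection needed a signal above 500, above 3 SD of the empty spots, and a spot CV under 0.5. Errors are over 4 spots and their number limits the precision. limma 3.58.1 was used for the normexp and quantile alternatives. With 1 array for each condition no test was run.

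The members, lists and alternatives were chosen with earlier results of these data known. Named were the 9 probes, other probes of their families where detected, every probe lower in YS and higher in BY past 2-fold, and the 3 most correlated probes for each. The remaining probes named were singled out after their values were seen. The alternatives covered normalization, background, spots, thresholds and left-out arrays. Probes were named as in the files.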

Additional observations from a re-analysis of the deposited data

Results flagged for a closer look

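By the sign of the mean signal alone, 6 of the 9 probes had all 3 cold YS arrays below the YS control and all 3 cold BY arrays above the BY control. They had been picked for this direction, and no share over all detected probes stands beside this count, so nothing is read from it. At 4 h in BY the cold and control spots of all 9 overlapped, so the sign there has no settled direction. The difference was not tested, since each condition is 1 array. The mean log2 ratio in YS minus that in BY was -2.50 for ptc-miR474b, -2.11 for ath-miR854a, -3.18 for osa-miR2096-3p, -3.78 for mtr-miR5205a, -2.63 for mtr-miR5205b and -2.22 for gma-miR5783. Outside the 9, osa-miR5819 showed the same split with -2.71, again untested, and it was not the only one. The never detected cme-miR854, mtr-miR5205c, hvu-miR5049b and sbi-miR6224a-3p had the same signs. By the difference alone, detected probes such as PC-3p-1949389_1 (-3.91) and PC-3p-518188_2 (-3.21) had larger sizes than osa-miR5819. The BY value at 4 h enters all of these. On that array the block 1 spots were the dimmest for each of the 9 probes, with no share over all detected probes beside this.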

How the results depend on the processing

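No paired analysis was possible because each condition has 1 array and the labels give no replicate numbers. Of 1170 log2 ratios of the 9 probes recomputed under 22 alternatives, 1051 moved by less than the spot SD, 119 moved by more, and none of those past 2-fold changed sign. The median ratio of the 9 probes lay between -1.46 and -0.47 at 4 h, between -2.25 and -1.26 at 12 h and between -1.90 and -0.96 at 24 h in YS, and between 1.29 and 2.70 at 12 h and 1.15 and 2.23 at 24 h in BY. Relative to the median of the 295 detected probes the 12 and 24 h ranges were -1.99 to -1.31 and -1.88 to -0.96 in YS, and 1.54 to 2.27 and 1.49 to 2.18 in BY. At 4 h in BY 34 of 189 ratios changed sign, so that time point has no settled direction.

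Past 2-fold, 8 probes were lower in YS, and the same number were also higher in BY. From the block 3 spots alone, an alternative chosen after seeing the data, both counts were 5, and the cause was not tested. Leaving out each repeat spot in turn gave 7 to 8 for both, and without the YS array at 12 h or without the BY array at 4 h both were 7. Loess on all probes, quantile normalization and a threshold of 1000 gave 6 in both directions. The count higher in BY was 9 throughout, except 6 with a signal threshold of 1000. Over all probes the count in both directions was 11. It was 17 with no normalization, 67 with no signal threshold, 7 with a threshold of 1000, 21 at 1.5-fold, 17 from block 2 and 6 from block 3. Signals near or under 500 limit what these arrays can show for mtr-miR5205a, hvu-miR5049c and osa-miR2096-3p.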
